A study of Saccharomyces cerevisiae S288C with 71 samples.

Results

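Loss of COX4 was examined at 12 h of culture in Saccharomyces cerevisiae S288C cells that already lacked TCO89. The double deletion strain cox4 tco89 (2 libraries) was set against the single deletion strain tco89 (2 libraries), which gives 4 of the 71 libraries of the series. Both sides of the comparison therefore lack TCO89, and only the double mutant lacks COX4 as well. Every gene of the deposited table entered: 5803 genes were listed, and the 5766 that reached 1 TPM in 2 or more libraries were tested. TPM, a transcript count corrected for length and library total, is a share of a library, so levels of different genes can be set side by side.

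The medium was yeast nitrogen base, with ammonium as nitrogen source and 2% glucose, shaken at 30 C. The series followed 12 strains at 0, 12 and 16 h, a span that covers the point where wild-type cells exhaust glucose. The series set respiratory mutants beside strains lacking RAS2, RTS1 or TCO89, whose loss, per the series text, suppresses the lethality that starvation brings to respiratory mutants. Other groups are used here only for contrast, with 2 libraries each: wild type (wt) and cox4 at 12 h, tco89 and cox4 tco89 at 0 h and 16 h, and ras2, cox4 ras2, rts1 and cox4 rts1 at 12 h. Libraries of 1 group are technical replicates in the labels, which do not say how many cultures or clones stand behind them, so p-values measure only the spread between such libraries. In a whole-culture sample, fewer cells of a kind and less RNA per cell cannot be told apart.

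COX4 encodes a nuclear subunit of cytochrome c oxidase, the last complex of the mitochondrial respiratory chain, and yeast without it grows by fermentation alone. TCO89 encodes a subunit of TORC1, the kinase complex that, when nutrients are plentiful, promotes ribosome synthesis and holds back starvation and stress programmes. When glucose runs out, wild-type yeast passes through the diauxic shift: low-affinity glucose transporters and glycolytic genes are turned down, high-affinity transporters are turned up, and the Hap2/3/4/5 complex raises the genes of respiration.

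The deletions were read first. COX4 (chromosome VII, 149704 to 150171, R64 annotation) stood at 520 and 448 TPM in the tco89 libraries and at 2.02 and 1.96 TPM in the cox4 tco89 libraries. TCO89 stood at 0.1 (the floor of the table) and 1.36 TPM in tco89 and at 0.106 and 0.1 TPM in cox4 tco89, against 17.8 and 17.6 TPM in wt. All 4 libraries thus matched their labels. The 2 tco89 libraries correlated across genes at r = 0.991, with 51 genes over 2-fold apart, and the cox4 tco89 libraries at r = 0.994, with 29 genes over 2-fold apart. Next to COX4, RPS26A, a ribosomal protein gene, changed by -0.93 and TPN1, a pyridoxine transporter gene, by -0.32 on the log2 scale. Neither passed the 2-fold threshold, though RPS26A did without 1 tco89 library (-1.01).

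At 12 h, losing COX4 in tco89 cells raised 127 genes (2.2% of 5766) and lowered 741 (12.9%), where a call needed an adjusted p under 0.05 in limma, with Benjamini-Hochberg adjustment over all genes, and at least a 2-fold change of TPM + 1. The libraries of the groups did not overlap in any of these 868; over all 5766 genes tested, they did not overlap in 4530 (78.6%). Of the 868, 503 lay between 2-fold and 2.5-fold; a further 1364 genes with an adjusted p under 0.05 lay between 1.5-fold and 2-fold and were not called. The median gene changed by -0.40 on the log2 scale. TPM is a share of a library. The 10 genes with the largest gains in TPM, chosen after their values were seen, were led by HSP12, CUP1-1 and SIP18. They held 8.95% and 8.84% of the tco89 libraries and 22.6% and 21.1% of the cox4 tco89 libraries. The 10 genes with the largest losses, chosen the same way, held 10.5% and 11.1% of tco89 and 5.16% and 5.95% of cox4 tco89. Whether these shares account for the median change was not tested. Rescaling each library by the median ratio over genes, which moves changes up by 0.38 before the pseudocount and by less in low genes, gave 239 that rose and 262 that fell. The counts of risers and fallers therefore depend on the scale, and counts after rescaling are given beside those of most lists below.

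Most genes for subunits of the respiratory chain complexes were higher in the double mutant. Of the 8 other nuclear subunits of cytochrome c oxidase, 5 rose and 0 fell, with a median of 1.09 (6 rose after rescaling). Complex III and cytochrome c gave 7 risers of 11 and a median of 1.16, and all 11 rose after rescaling. Succinate dehydrogenase, the complex that feeds electrons from succinate into the chain, gave 4 of 4, with a median of 1.85. For ATP synthase 1 of 13 rose, with a median of 0.47, and 4 rose after rescaling. Of 6 respiratory dehydrogenases 1 rose, with a median of 0.38, and 2 rose after rescaling. Coenzyme Q synthesis gave 0 calls of 11 and a median of -0.28. At an unadjusted p under 0.05 in limma, 1 of its genes was higher and 5 were lower.

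SDH2, the iron-sulfur subunit of succinate dehydrogenase, stood at 299 and 288 TPM in tco89 and at 1587 and 1628 TPM in cox4 tco89, a log2 change of 2.45 ± 0.11 (SE; adjusted p = 1.1e-22). The 2 pairs were far apart, with little spread inside each. SDH1, the flavoprotein subunit, went from 88.5 and 95.9 TPM to 346 and 408 TPM, a change of 2.02. SDH3 and SDH4, the membrane anchors, rose by 1.65 and 1.68. The subunits of this complex were thus all higher in the double mutant, by 3.15-fold to 5.46-fold on the TPM + 1 scale. 

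Among the oxidase subunits, COX7 was at 1073 and 855 TPM in tco89 and at 2759 and 2444 TPM in cox4 tco89, a log2 change of 1.44 ± 0.18. COX6 rose by 1.40, COX8 by 1.19 and COX5A, the aerobic form of subunit V, by 1.13. COX5B, the hypoxic form of the same subunit, stood at a mean of 351 TPM in tco89 and 279.6 TPM in the double mutant and was not called. COX26, which encodes a small protein found with respiratory supercomplexes, went from 308 and 270 TPM to 1651 and 1555 TPM, a log2 change of 2.47. In complex III, the Rieske iron-sulfur protein gene RIP1 rose by 1.52 and QCR10 by 1.37. Both cytochrome c genes rose, CYC7 by 1.80 and CYC1 by 1.47. HAP4, the regulated subunit of the Hap activator, was at 56.7 and 44.4 TPM in tco89 and at 135 and 119 TPM in cox4 tco89, a log2 change of 1.32 (adjusted p = 1.3e-12).

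Assembly factors of the oxidase did not move as a list: 2 of 28 rose, COA2 by 1.45 and PET111, the activator of COX2 translation, by 1.04 (0.95 without 1 tco89 library and 0.98 without 1 cox4 tco89 library, no longer calls), and the median was -0.20. The 66 mitochondrial ribosomal proteins gave 0 called genes and a median of -0.33, beside -0.40 for all genes; at an unadjusted p under 0.05 in limma, 2 were higher and 40 lower. In the TCA cycle ACO1, aconitase, rose by 1.08, as the only member of 12, and 3 rose after rescaling.

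The upstream DNA of SDH2 and SDH1 is shown because they encode the catalytic subunits of succinate dehydrogenase, the list with the highest median. Each line holds the 250 bases from 350 to 101 bases before the start codon, read 5′ to 3′ on the gene's strand from the R64 genome (RefSeq). Capitals mark CCAAT, the core of the Hap2/3/4/5 site, AGGGG, the core of the stress response element, and GCGGGG, the core of the Mig1 repressor site, on either strand. The SDH2 window overlaps the neighbouring gene YLL040C.
SDH2, chrXII:54032-54281 (minus strand): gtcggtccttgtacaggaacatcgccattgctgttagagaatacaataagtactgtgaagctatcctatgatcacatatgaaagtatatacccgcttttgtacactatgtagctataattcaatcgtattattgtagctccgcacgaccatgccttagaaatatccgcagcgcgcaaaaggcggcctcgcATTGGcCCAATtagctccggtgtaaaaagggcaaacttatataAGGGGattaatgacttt
SDH1, chrXI:171230-171479 (minus strand): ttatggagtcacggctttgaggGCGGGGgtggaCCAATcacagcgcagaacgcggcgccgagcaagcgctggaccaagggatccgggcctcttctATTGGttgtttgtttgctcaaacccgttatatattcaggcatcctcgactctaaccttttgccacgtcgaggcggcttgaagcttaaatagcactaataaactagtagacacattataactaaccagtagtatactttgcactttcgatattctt

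CCAAT was present in such windows of 8 of 8 oxidase subunits, 4 of 4 succinate dehydrogenase genes and 8 of 11 genes of complex III and cytochrome c, against 38% of 5749 windows of tested genes. It stood in 51.6% of the windows of genes that rose and in 38.3% of those that fell. GCGGGG stood in 16.7% of the windows of risers, 1.89% of fallers and 3.18% of all, and AGGGG in 38.1%, 15.9% and 20.5%. Both strands were searched, and matches of different motifs may overlap by a base or more. A match of these letters is a description of the sequence, not a bound site.

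**Figure D1:**
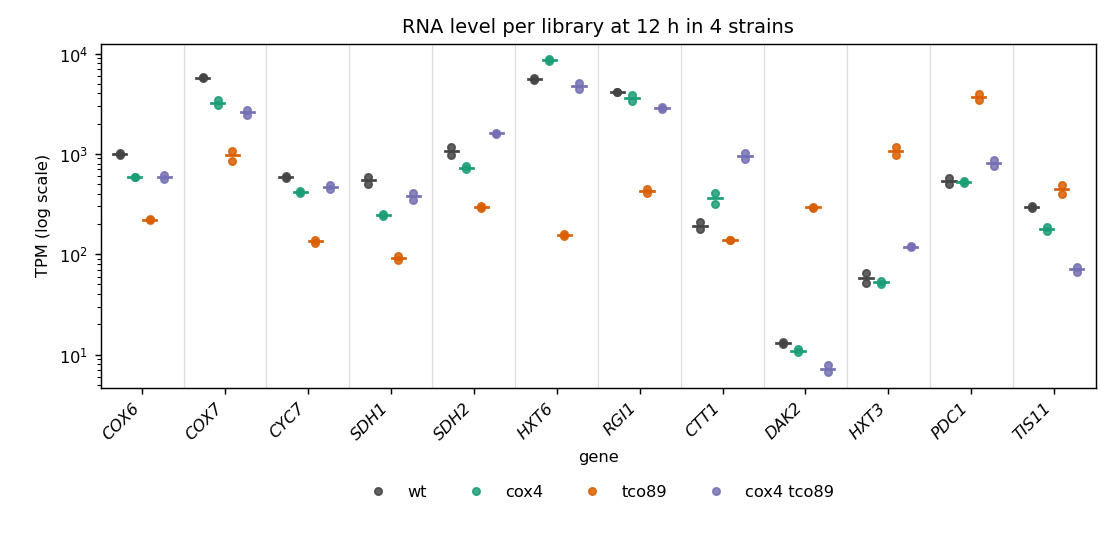
RNA levels at 12 h of 12 genes in wt, cox4, tco89 and cox4 tco89, in TPM on a log axis; each point is 1 library and each bar the mean of 2. For SDH2, COX7, HXT6 and RGI1 the tco89 libraries lie below those of the other 3 strains, and for DAK2, HXT3 and PDC1 they lie above them.

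Levels in 4 strains put these changes in order. Summed over the 8 oxidase subunits, wt libraries held 19292 and 19852 TPM, cox4 libraries 10496 and 11083 TPM, tco89 libraries 5612 and 5168 TPM, and cox4 tco89 libraries 10925 and 10322 TPM. The double mutant thus lay within the range of the cox4 single mutant or near it, below wt and above tco89. Complex III and cytochrome c had the same order, with 18952 and 19329.7 TPM in wt, 10401 and 10543 in cox4, 4496 and 4430.4 in tco89, and 10521 and 10172 in cox4 tco89. In 11 of the 11 genes of that list and 7 of the 8 subunits both tco89 libraries were the lowest of the 8, which held for 6.83% of all genes tested. Succinate dehydrogenase differed: its sum in cox4 tco89, 4801 and 5058 TPM, was above that of cox4, 2779.9 and 2824 TPM, and near that of wt, 4579.5 and 4904 TPM.

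**Figure D2:**
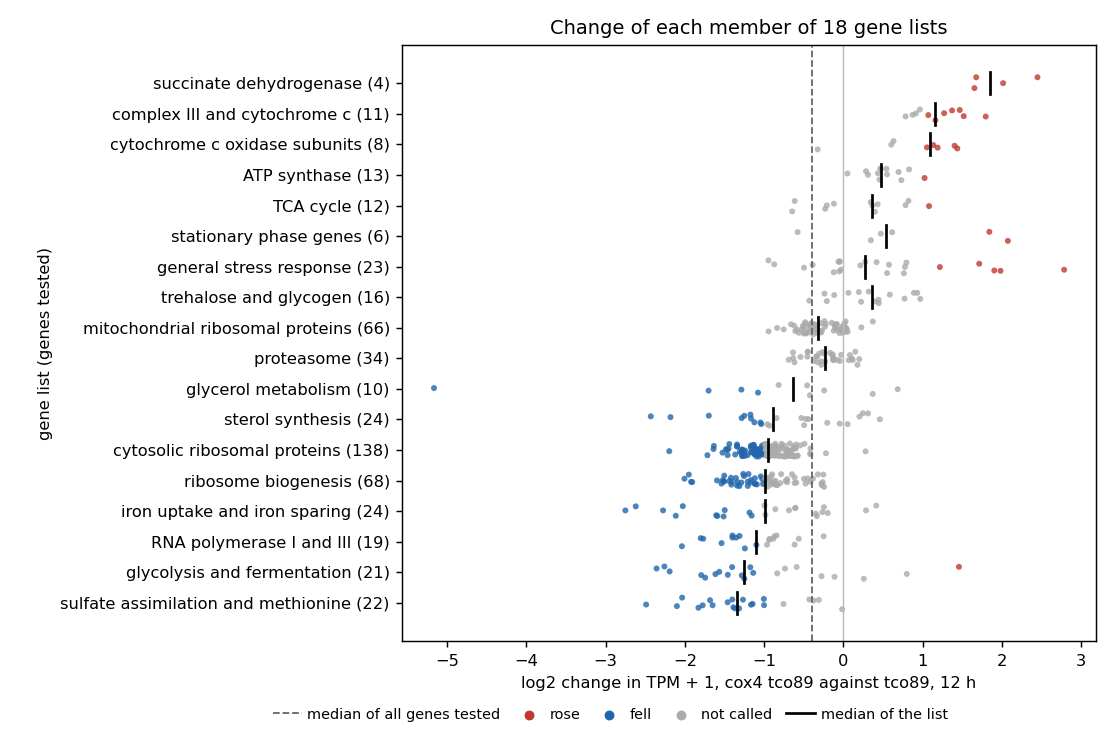
Change at 12 h of every tested member of 18 gene lists, as the log2 change of TPM + 1 from tco89 to cox4 tco89; red points rose, blue points fell, grey points were not called, black bars are list medians and the dashed line is the all-gene median of -0.40. Succinate dehydrogenase, complex III and the oxidase lie to the right, glycolysis and sulfate assimilation to the left.

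Hexose transporters differ in affinity, and cells in plentiful glucose use the low-affinity HXT1 and HXT3 while HXT6 and HXT7 serve cells in scarce glucose. HXT6 stood at 158 and 153 TPM in tco89 and at 4440.1 and 5102 TPM in cox4 tco89, a log2 change of 4.92 ± 0.41 (adjusted p = 1.9e-13), the largest rise among genes named by rule. HXT7 went from 563 and 558 TPM to 3161 and 3215 TPM. The coding sequences of HXT6 and HXT7 are 99.8% identical, and how reads were divided between them is not given, so their sum is the safer value: 721 and 711 TPM in tco89 and 7601 and 8316 TPM in cox4 tco89, 11.1 times as much. HXT3 moved the other way, from 1158 and 984 TPM to 117 and 120 TPM, a change of -3.16 ± 0.18 (adjusted p = 1.3e-18). HXT4 fell by 1.25, a call lost after rescaling (-0.87). HXT1 is named as background only, and its change is not reported here. Of 16 genes of hexose transport and sensing 2 rose, 2 fell and 12 were not called. Their median was -0.38, beside -0.40 for all genes, and after rescaling 4 rose and 1 fell. SUC2, secreted invertase, whose gene is repressed by glucose, rose from 48.0 and 56.1 TPM to 272 and 294 TPM, and HXK1, a hexokinase, by 1.46.

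RGI1 and RGI2, a pair of genes known for their role in respiratory growth, rose by 2.74 and 3.84; RGI1 went from 407 and 451 TPM to 2792 and 2946 TPM. DSF1, a mannitol dehydrogenase gene, rose from 11.6 and 8.67 TPM to 157 and 166 TPM, and the polyol transporter gene HXT13 from 1.24 and 1.11 TPM to 9.73 and 15.0 TPM. Both have near copies, at 98.9% and 97.2% identity; the sum of DSF1 and its copy YNR073C was 11.4 times as high in the double mutant. YAT1, YAT2 and CAT2, carnitine acetyltransferases that carry acetyl groups into mitochondria, rose by 2.45, 1.94 and 1.69. ACH1, which acts in mitochondrial acetyl transfer, rose by 1.60. The lists around them were mixed. In beta-oxidation and the carnitine shuttle 3 of 17 rose and 1 fell, at a median of -0.002 (4 rose and 0 fell after rescaling). In ethanol and acetate use 2 of 8 rose and 3 fell, at a median of 0.07 (2 rose and 2 fell after rescaling). CYB2, lactate dehydrogenase of the intermembrane space, rose by 1.99.

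Glycolysis and fermentation fell as a list: 13 of 21 fell and 1 rose, HXK1, with a median of -1.25, and after rescaling 9 fell and 2 rose. PDC1, the main pyruvate decarboxylase, went from 3461 and 3934 TPM in tco89 to 752 and 867 TPM in cox4 tco89, a log2 change of -2.19. TDH1 fell by 1.79, and TDH2 by 2.36, with 95.8% identity to TDH3, which leaves the share of each uncertain. TDH3 itself was not called, with mean levels of 21440.5 and 25636 TPM in tco89 and cox4 tco89. In 17 of 21 genes of the list the tco89 libraries were the highest of the 4 strains at 12 h, against 39.6% of all genes. The summed level was 71373 and 73148 TPM in tco89, 49053 and 50973 in cox4 tco89, 25910.3 and 25399 in cox4, and 18592 and 16408 in wt.

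DAK2, a dihydroxyacetone kinase, gave the largest fall after COX4 itself: 297 and 292 TPM in tco89 and 6.71 and 7.83 TPM in cox4 tco89, a log2 change of -5.16 ± 0.19 (adjusted p = 9.2e-25). Its levels in wt, 13.2 and 12.9 TPM, and in cox4, 11.4 and 10.5 TPM, were low, while ras2, at 154 and 149 TPM, and rts1, at 127 and 131 TPM, were high as well. GPP2, a glycerol phosphatase, fell by 1.70, and 4 of 10 genes of glycerol metabolism fell with 0 risers (2 fell and 1 rose after rescaling). In the pentose phosphate pathway, which supplies NADPH, 5 of 11 fell and 1 rose. GND1, its main 6-phosphogluconate dehydrogenase, went from 504 and 505 TPM to 80.1 and 90.7 TPM, while TKL2, the minor transketolase, rose by 1.03, a call lost without 1 cox4 tco89 library (0.93).

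The windows upstream of HXT6 and DSF1, which had the largest rises, and of the genes with the 3 largest falls apart from COX4 are given in the same form and with the same capitals, since these genes span the range of the response.
HXT6, chrIV:1161421-1161670 (minus strand): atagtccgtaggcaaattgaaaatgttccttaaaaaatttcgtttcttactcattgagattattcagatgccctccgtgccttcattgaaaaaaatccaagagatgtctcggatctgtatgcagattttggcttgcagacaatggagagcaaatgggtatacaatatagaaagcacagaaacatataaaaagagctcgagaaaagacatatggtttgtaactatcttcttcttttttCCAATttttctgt
DSF1, chrV:19239-19488 (plus strand): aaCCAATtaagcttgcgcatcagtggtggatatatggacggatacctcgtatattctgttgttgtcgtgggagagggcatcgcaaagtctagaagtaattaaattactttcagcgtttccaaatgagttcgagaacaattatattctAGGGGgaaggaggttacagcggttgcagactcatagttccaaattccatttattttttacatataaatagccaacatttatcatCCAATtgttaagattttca
DAK2, chrVI:23073-23322 (plus strand): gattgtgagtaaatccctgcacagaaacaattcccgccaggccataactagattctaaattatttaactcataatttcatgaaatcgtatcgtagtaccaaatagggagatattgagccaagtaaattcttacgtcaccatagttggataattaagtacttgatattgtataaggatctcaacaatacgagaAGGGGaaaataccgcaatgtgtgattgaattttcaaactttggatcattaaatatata
BAP3, chrIV:550677-550926 (minus strand): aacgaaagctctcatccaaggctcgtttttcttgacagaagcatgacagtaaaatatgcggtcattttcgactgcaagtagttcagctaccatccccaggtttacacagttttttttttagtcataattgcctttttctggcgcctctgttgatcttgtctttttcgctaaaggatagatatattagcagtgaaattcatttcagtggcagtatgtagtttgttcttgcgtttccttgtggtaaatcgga
HXT3, chrIV:1164761-1165010 (minus strand): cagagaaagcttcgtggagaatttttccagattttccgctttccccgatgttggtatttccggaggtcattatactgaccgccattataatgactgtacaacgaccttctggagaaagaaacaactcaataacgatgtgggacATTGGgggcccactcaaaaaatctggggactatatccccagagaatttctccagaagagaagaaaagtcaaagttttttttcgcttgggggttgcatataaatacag

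Both risers held CCAAT, and DSF1 also AGGGG. Of the 3 fallers, HXT3 held 1 CCAAT, DAK2 1 AGGGG, and BAP3 none of the 3 motifs in this window.

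Stress genes rose in part. Of 23 genes of the general stress response 5 rose and 0 fell, with a median of 0.28 (8 rose after rescaling). CTT1, cytosolic catalase, went from 137.1 and 137.5 TPM in tco89 to 1029 and 881 TPM in cox4 tco89, a log2 change of 2.79 ± 0.11 (adjusted p = 5.3e-24). HSP12, a small membrane-binding stress protein, went from 6357 and 7230 TPM to 28125 and 25535 TPM. HSP30, SIP18 and SSA3 rose by 1.90, 1.71 and 1.22. Large members such as HSP26 and HSP104 were not called, with mean levels of 29658.5 and 27206 TPM for HSP26. Of the stationary phase genes, SPG1 and SPG4 rose by 2.08 and 1.84 among 6. The 16 trehalose and glycogen genes gave 0 calls in limma at a median of 0.36, with 10 higher and 2 lower at an unadjusted p under 0.05, and 4 rose after rescaling. In the list of 20 chaperone genes, which does not hold SSA3, 2 fell, among them SSA4 by 1.47, and 0 rose. After rescaling 1 fell and 3 rose. Of 20 antioxidant genes 4 fell (GPX2, OYE2, GSH1 and TRR1) and 0 rose, and after rescaling 0 fell and 2 rose. Over all genes tested, 2.2% rose and 12.9% fell before rescaling.

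In iron uptake and iron sparing 11 of 24 fell and 0 rose, with a median of -0.99, and 9 fell after rescaling. TIS11, which promotes decay of mRNAs for iron-using proteins when iron is scarce, went from 492 and 394 TPM in tco89 to 66.9 and 75.0 TPM in cox4 tco89, a log2 change of -2.62 ± 0.11. FTR1, the high-affinity iron permease, went from 374 and 385 TPM to 70.2 and 86.0 TPM. LSO1, which is induced by low iron, and ISU2, an iron-sulfur scaffold, fell by 2.75 and 2.11. In 18 of the 24 genes the cox4 tco89 libraries were the lowest of the 8 at 12 h, against 28.3% of all genes. The summed level was 16449 and 16906 TPM in tco89 and 9319 and 10020.0 TPM in cox4 tco89, against 31218 to 42987 TPM in the wt and cox4 libraries. Of 8 copper genes 2 rose and 1 fell, with 6 changes below 0 and a median of -0.75. The metallothionein gene CRS5 rose by 2.01, and FRE7, a metal reductase gene, was 2.14-fold lower, a call lost after rescaling. CUP1-1, the main copper metallothionein gene, which has an identical copy, rose by 1.05, a call lost without 1 cox4 tco89 library (0.90).

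The windows of TIS11 and FTR1 are shown because both genes are known targets of the iron regulator Aft1; capitals mark GCACCC, the core of its site, on either strand. GCACCC stood in 66.7% of the windows of the iron list and in 3.97% of all windows. The TIS11 window overlaps the neighbouring gene YLR137W.
TIS11, chrXII:416759-417008 (minus strand): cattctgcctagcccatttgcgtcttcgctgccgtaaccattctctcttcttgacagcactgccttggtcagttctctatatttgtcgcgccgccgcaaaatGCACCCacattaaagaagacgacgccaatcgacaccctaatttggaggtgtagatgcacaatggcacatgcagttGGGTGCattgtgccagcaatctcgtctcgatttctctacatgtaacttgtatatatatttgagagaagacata
FTR1, chrV:461841-462090 (minus strand): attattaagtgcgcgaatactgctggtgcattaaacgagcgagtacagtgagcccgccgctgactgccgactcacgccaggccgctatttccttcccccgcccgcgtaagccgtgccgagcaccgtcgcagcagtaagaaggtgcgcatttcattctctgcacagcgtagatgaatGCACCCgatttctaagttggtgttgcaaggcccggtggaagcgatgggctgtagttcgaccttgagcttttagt

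In sulfate assimilation and methionine synthesis 17 of 22 fell and 0 rose, at a median of -1.34, the lowest of the 52 lists, and 11 fell after rescaling. MET17, which makes homocysteine from sulfide, went from 574 and 713 TPM in tco89 to 134 and 164 TPM in cox4 tco89. CYS3, cystathionine gamma-lyase, fell by 2.03, and MUP1, the high-affinity methionine permease, by 2.49. Amino acid synthesis as a wider list gave 17 fallers of 52 and 1 riser, CPA1, the arginine-branch carbamoyl phosphate synthase subunit, at 1.55 (7 fell and 2 rose after rescaling). BAP3, a branched-chain amino acid permease, went from 26.1 and 21.0 TPM to 1.24 and 0.929 TPM, a log2 change of -3.55.

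Among lipid genes, 10 of 24 for sterol synthesis fell, at a median of -0.89, and 3 after rescaling. ERG3, a sterol desaturase, went from 1401 and 1291 TPM to 241 and 257 TPM, a log2 change of -2.43, and ERG25, a methyl sterol oxidase, fell by 2.18. OLE1, the fatty acid desaturase, fell by 1.55, and INO1, which makes inositol phosphate, by 1.90. Phosphate genes moved little as a list, with 3 of 17 down, against 12.9% of all genes. PHM6 fell by 2.65, PHM8 by 1.99 and PHO84, the high-affinity phosphate transporter, by 1.98.

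Genes for making ribosomes were lower. Of 138 cytosolic ribosomal protein genes 53 fell and 0 rose, at a median of -0.95, but after rescaling the count was 10, so most of these calls rest on the scale. RPS26B was 4.58-fold lower, going from 297 and 416 TPM to 68.4 and 84.3 TPM. Ribosome biogenesis gave 33 of 68 (17 after rescaling), with NOP56, a core box C/D snoRNA protein, at -2.00. For subunits of RNA polymerase I and III the count was 10 of 19 (6 after rescaling), with RPA12 at -2.04. The AAAATTT core of the RRPE element stood in 35.8% of the windows of fallers and 22.2% of all, and the GATGAG core of the PAC element in 22.8% and 15.4%. Proteasome genes (34), autophagy genes (31) and TORC1 and its effectors (25) gave 0 calls each in limma, with medians of -0.24, -0.06 and -0.34. At an unadjusted p under 0.05, 0 proteasome genes were higher and 18 lower, 4 autophagy genes were higher and 8 lower, and 3 TORC1 genes were higher and 16 lower.

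Other genes named by rule were the ethyl ester synthase gene EEB1, which went from 411 and 339 TPM to 41.6 and 48.3 TPM, and the polyamine exporter gene TPO2, which fell by 2.82. RRT15, which lies in the ribosomal DNA, stood at 292 and 547 TPM in tco89 and at 637 and 6348 TPM in cox4 tco89, so its rise of 2.33 came from 1 library, and without that library it was 0.67 (adjusted p = 0.3). The a-cell and alpha-cell lists, which mark mating types, gave 1 riser and 1 faller of 6 and 0 risers and 1 faller of 4. The riser, MFA2, lost its call without 1 tco89 library (0.97) or 1 cox4 tco89 library (0.82). BAR1, the faller of the a-cell list, lost its call after rescaling (-0.86). In the alpha-cell list, MF(ALPHA)1, at 381 and 629 TPM in tco89 and 147 and 178 TPM in cox4 tco89, also differed between the tco89 libraries.

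The next comparison asks whether the response to losing COX4 depends on TCO89. In wild type, at the same time, 48 genes rose (0.832%) and 140 fell (2.43%) from wt to cox4, or 80 and 72 after rescaling. These libraries are separate from those above. The difference between both changes was tested directly as an interaction: 184 genes (3.19%) had a higher log2 change in tco89 than in wild type and 369 (6.4%) a lower one, or 247 and 211 after rescaling. Of the 127 risers in tco89, 12 also rose in wild type (9.45% of the 127, 25% of the 48) and 11 fell there. Of the 741 fallers, 38 also fell (5.13% of the 741, 27.1% of the 140) and 1 rose, HUG1. COX4, the gene deleted, is among the 38.

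The medians of the respiratory lists had opposite signs. In wild type the oxidase list had a median of -0.79, complex III and cytochrome c -0.84, succinate dehydrogenase -0.77 and ATP synthase -1.10, with 0 risers in each. Fallers there numbered 2 of 8, 4 of 11, 1 of 4 and 11 of 13, and after rescaling 0, 2, 0 and 3. The interaction passed for 7 of 8 oxidase subunits, 11 of 11 of complex III and cytochrome c, 4 of 4 of succinate dehydrogenase and 13 of 13 of ATP synthase, all with the higher change in tco89, and these interaction counts were unchanged after rescaling. SDH2 illustrates the pattern: it stood at 982 and 1176 TPM in wt and at 761 and 702 TPM in cox4, a change of -0.56, against 2.45 in tco89, a difference of 3.00 ± 0.15 (adjusted p = 6e-20). For SDH1 the difference was 3.16, for CYC1 2.76 and for HAP4 2.35.

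**Figure D3:**
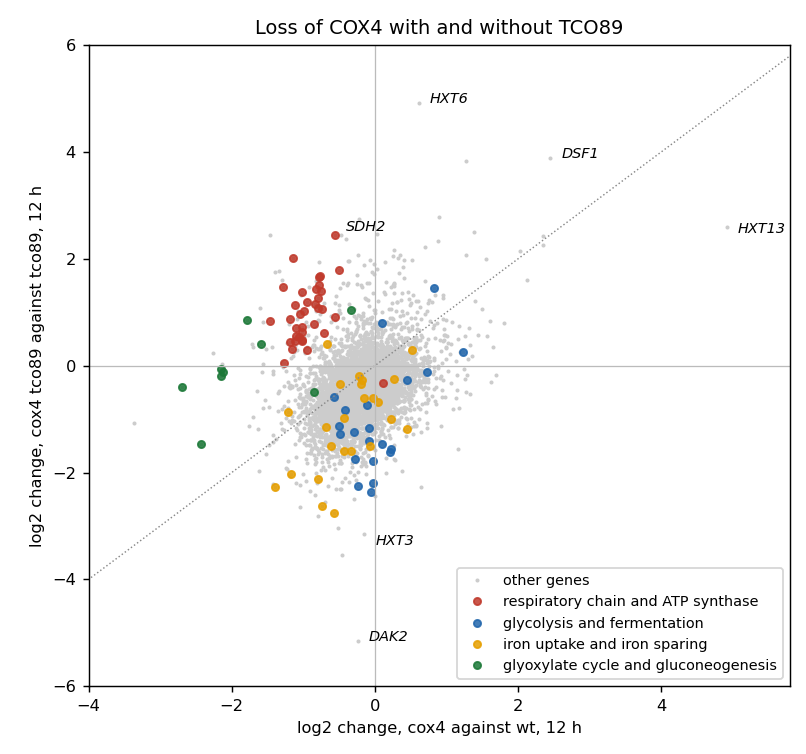
Log2 change from wt to cox4 (horizontal axis) and from tco89 to cox4 tco89 (vertical axis) at 12 h, 1 point per gene, with COX4 outside the frame; the dotted line marks equal changes. Respiratory chain and ATP synthase genes lie left of 0 and above it, apart from COX5B, glycolytic genes near 0 on the horizontal axis and below 0 on the vertical axis.

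Glyoxylate cycle and gluconeogenesis genes gave another kind of difference. In wild type 7 of 9 fell, with a median of -2.12; in tco89, 1 fell (SFC1, the succinate-fumarate carrier, by 1.46) and 1 rose (ACS1, acetyl-CoA synthetase, by 1.04, a call lost without 1 cox4 tco89 library), with a median of -0.11. Their summed level was 2086 and 2325 TPM in wt, 622 and 587 in cox4, 579 and 496 in tco89, and 569 and 547.5 in cox4 tco89, so wt stood above the other 3 strains. For 7 of 9 the interaction passed.

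Glycolytic genes fell in tco89 but had a median of -0.06 in wild type, and the interaction passed for 10 of 21, all lower in tco89. HXT6 was already at 5508 and 5641 TPM in wt and at 8755 and 8388 TPM in cox4, a change of 0.62. Summed with HXT7, its near-identical copy, the level was 6214 and 6272 TPM in wt and 10546 and 10089 TPM in cox4. That sum was 1.65 times as high in cox4 as in wt, against 11.1 times on losing COX4 in tco89. For HXT6 alone the difference between backgrounds was 4.30 ± 0.58, which leaves out HXT7. For DAK2 the difference was -4.93 ± 0.27 and for BAP3 -3.09. Some genes responded in both backgrounds: SUC2 rose by 2.35 in wild type and 2.42 in tco89, a difference of 0.07 ± 0.16, TIP1, a cell wall mannoprotein, by 2.03 and 2.16, and CYB2 by 1.55 and 1.99. HXT13 rose in both and more in wild type (4.92 against 2.59), a difference of -2.33 (adjusted p = 3e-09). The iron list fell in wild type for 3 of 24 and the interaction passed for 8 as lower in tco89 and for 1 as higher. Cytosolic ribosomal protein genes had a median of -0.62 in wild type, beside -0.18 for all genes. For them the interaction passed for 6 of 138 as lower in tco89 (2 after rescaling), and for ribosome biogenesis for 20 of 68 (8). Over all genes tested, 6.4% passed as lower. Sulfate assimilation had 2 fallers of 22 in wild type and a median of -0.46, and the interaction passed for 5 as lower in tco89.

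The same strains were compared in log phase, at 0 h. There 46 genes rose (0.798%) and 4 fell (0.0694%) from tco89 to cox4 tco89. The oxidase, complex III, succinate dehydrogenase and ATP synthase lists had 0 calls in limma; at an unadjusted p under 0.05, 3 of their 36 members were higher and 14 lower. The change at 12 h was higher than that at 0 h for 122 genes (2.12%) and lower for 628 (10.9%), by the interaction, or 212 and 239 after rescaling. Of 21 glycolytic genes 3 rose at 0 h and all 21 changes were above 0, and the interaction passed for 15 as lower at 12 h.

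TDH1, a glyceraldehyde-phosphate dehydrogenase isoform, shows the turn. At 0 h it was at 88.9 and 77.9 TPM in tco89 and at 246 and 243 TPM in cox4 tco89, higher in the double mutant, and at 12 h at 9296 and 8525 TPM in tco89 and 2580.2 and 2556 TPM in cox4 tco89, lower in it. The other genes that fell at 12 h and had risen at 0 h were BIO3, BIO4, ENO1, INO1, TDH2, TIS11 and YJR154W, named after their values were seen. TIS11 went from 7.80 and 8.39 TPM to 18.1 and 17.7 TPM at 0 h. HSP12 turned the other way, falling by 1.17 at 0 h. Of the 127 risers of 12 h, 8 also rose at 0 h (6.3% of the 127, 17.4% of the 46). Among them were CYB2, COX26 and YAT1, by 2.01, 2.91 and 2.04 at 0 h. Of the 741 fallers, 3 also fell at 0 h (0.405% of the 741, 75% of the 4), among them COX4 and TPO2, by 8.66 and 1.31.

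**Figure D4:**
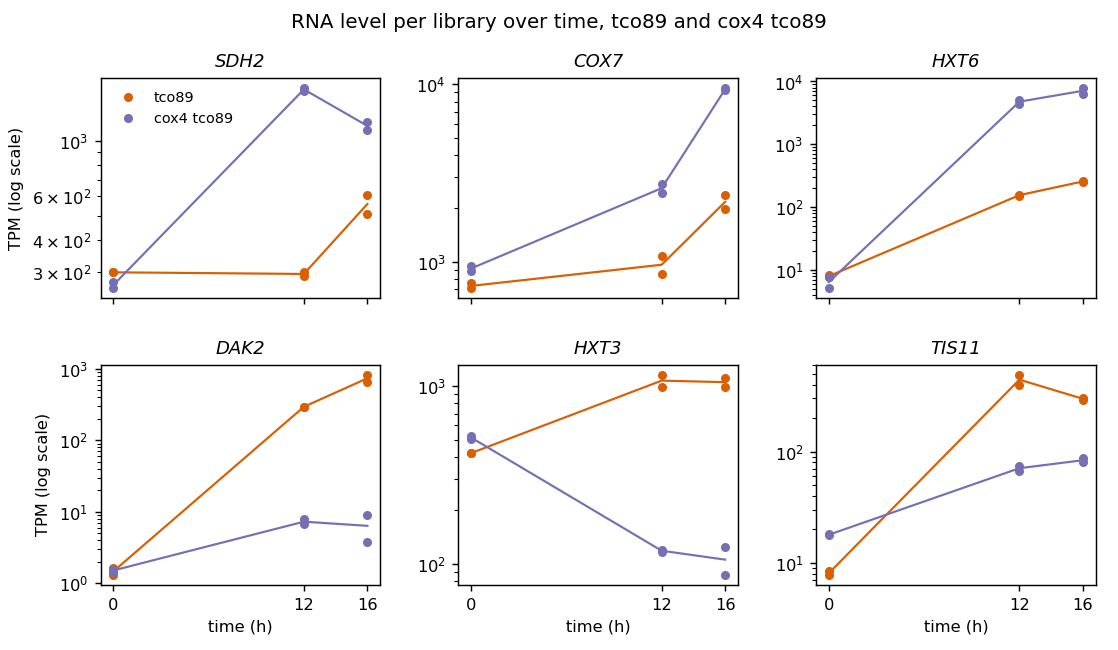
Levels of 6 genes at 0, 12 and 16 h in tco89 and cox4 tco89, in TPM on a log axis; points are libraries and lines join the means of 2. The strains lie close together at 0 h for SDH2, HXT6, DAK2 and HXT3 and apart at 12 and 16 h.

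At 16 h the difference between the strains was wider: 214 genes rose (3.71%) and 1715 fell (29.7%), or 662 and 307 after rescaling. The median of all genes was -0.66. One cox4 tco89 library at this time held COX4 at 72.3 TPM and the other at 2.95 TPM, and the pair correlated at r = 0.988, with 95 genes over 2-fold apart. Without the library at 72.3 TPM, 214 rose and 1540 fell. Of the 127 risers of 12 h, 47 rose at 16 h too (37% of the 127, 22% of the 214) and 13 fell. Of the 741 fallers 380 fell at 16 h too (51.3% of the 741, 22.2% of the 1715), COX4 among them.

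HXT6 at 16 h stood at 263 and 252 TPM in tco89 and at 6363 and 7866 TPM in cox4 tco89, and DAK2 at 832 and 646 TPM against 8.89 and 3.82 TPM. HXT6 and HXT7 together held 1451 and 1313 TPM in tco89 and 7668 and 9351 TPM in cox4 tco89 at 16 h. SDH2 rose from 610.1 and 508 TPM to 1195 and 1102 TPM, and COX7 from 1988 and 2373 TPM to 9537 and 9249 TPM. The respiratory lists were thus higher in the double mutant at both late times, with 5 risers of 8 oxidase subunits and 6 of 11 of complex III and cytochrome c at 16 h. DSF1 and HXT13 were not called at 16 h, with log2 changes of 0.21 each. CTT1 and HSP12 had log2 changes of -0.74 and -0.76 at 16 h, under 2-fold. After rescaling the change of CTT1 was -0.02. MUP1, at 0.48, was not among the fallers of 16 h, and after rescaling it was called as a riser, at 1.16.

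Loss of COX4 in the other strains that lack a suppressor gene gave fewer calls at 12 h. In ras2, which lacks a Ras GTPase upstream of protein kinase A, 55 genes rose (0.954%) and 44 fell (0.763%). In rts1, which lacks a regulatory subunit of protein phosphatase 2A, 41 rose (0.711%) and 58 fell (1.01%), or 68 and 27 after rescaling. The count of fallers in rts1 ran from 24 to 193 with 1 library left out; it was 193 without 1 rts1 library, 24 without the other and 95 without 1 cox4 rts1 library. No library of these groups is shared with the comparison in tco89.

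HXT6 rose in both, from 125 and 130 TPM in ras2 to 1471 and 1461 TPM in cox4 ras2, and from 722 and 668 TPM in rts1 to 2329 and 2410 TPM in cox4 rts1. Its near copy HXT7 rose by 2.01 in ras2 and was not called in rts1, at 0.73. DAK2 fell in both, by 2.91 and 3.15, and HXT3 by 1.62 and 1.96. DSF1 and HXT13 rose by 5.62 and 5.37 in ras2 and by 3.40 and 4.24 in rts1. Of the genes called in ras2, 29 of the risers (52.7% of 55, 22.8% of 127) and 32 of the fallers (72.7% of 44, 4.32% of 741) were called the same way in tco89. For rts1 the numbers were 14 (34.1% of 41, 11% of 127) and 40 (69% of 58, 5.4% of 741). COX4, the gene deleted, is among the shared fallers for ras2 and for rts1 and among the genes correlated next. Across all 5766 genes the log2 changes in tco89 correlated at r = 0.36 with those in ras2, 0.613 with those in rts1 and 0.348 with those in wild type, as a description without a test.

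Respiratory genes were called in few cases here. The oxidase list had a median of 0.51 in ras2 and -0.14 in rts1 and succinate dehydrogenase 0.57 and -0.01, each with 0 calls in limma. At an unadjusted p under 0.05, 7 oxidase subunits were higher and 1 lower in ras2, and 1 higher and 2 lower in rts1; for succinate dehydrogenase 4 were higher in ras2 and 1 in rts1. SDH2, for example, was at 156 and 160.3 TPM in ras2 and 245 and 267 TPM in cox4 ras2, a log2 change of 0.69, and it changed by 0.26 in rts1. CYC1 was called in ras2, at 2.00. All 11 changes in complex III and cytochrome c and all 13 in ATP synthase were above 0 in ras2. Their medians were 0.39 and 0.36 there, and -0.04 and -0.14 in rts1. The difference between backgrounds was tested as an interaction, added after the values were seen: 80 genes changed more positively in tco89 than in ras2 (1.39%) and 750 more negatively (13%), or 175 and 332 after rescaling. Against rts1 these were 99 (1.72%) and 247 (4.28%), or 133 and 134. For succinate dehydrogenase the test passed for 4 of 4 against each, higher in tco89, and for the oxidase for 0 of 8 against ras2 (3 after rescaling) and 5 of 8 against rts1 (6). Complex III and cytochrome c passed for 2 of 11 against ras2 (5) and 9 of 11 against rts1 (11). ATP synthase passed for 0 of 13 against each (1 and 3 after rescaling). SDH2 differed by 1.76 from ras2 and by 2.19 from rts1, and CTT1 by 3.30 and 1.80. DSF1 changed less in tco89 than in ras2, by -1.74. Sulfate assimilation gave 0 fallers of 22 in ras2 and 1 in rts1, and the iron list 1 and 0 of 24. The medians were -0.15 and -0.36 for sulfate assimilation and 0.12 and 0.08 for iron. At an unadjusted p under 0.05 in limma, 2 sulfate genes were higher and 7 lower in ras2, and 4 iron genes were higher and 9 lower in rts1. Cytosolic ribosomal protein genes had a median of 0.28 in ras2 and -0.60 in rts1. The difference passed for 109 of 138 as lower in tco89 than in ras2 (41 after rescaling), and for 0 against rts1.

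**Figure D5:**
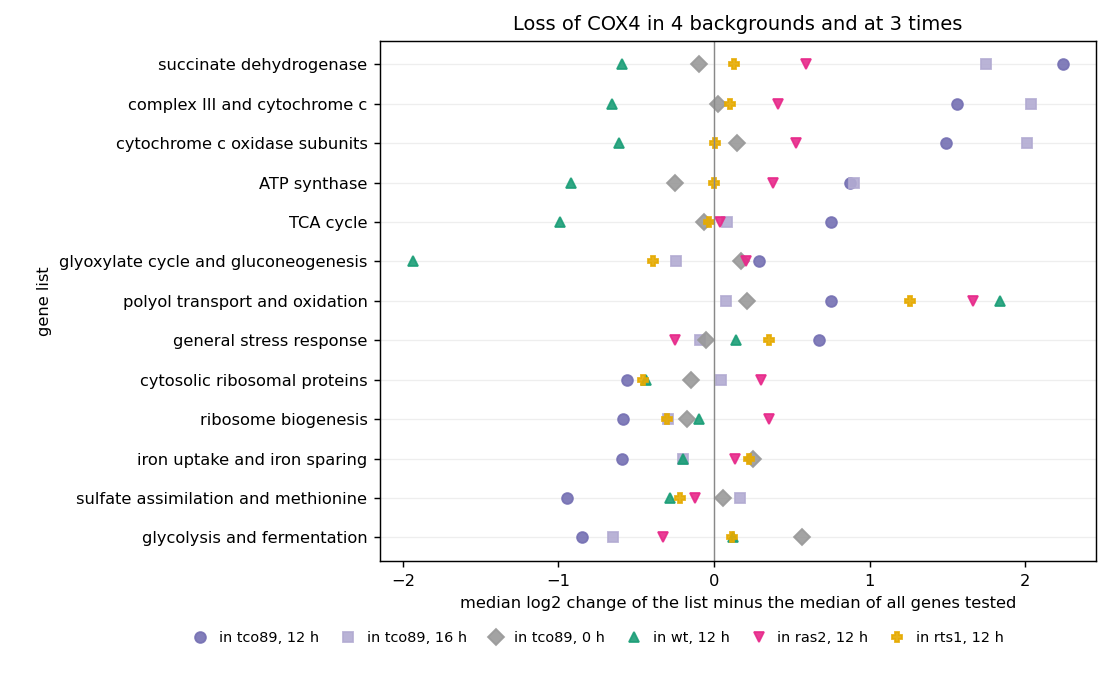
Median log2 change of 13 lists on losing COX4 in tco89 at 12, 16 and 0 h and in wt, ras2 and rts1 at 12 h, each less the median of all genes tested in that comparison. Respiratory chain lists lie right of 0 in tco89 at 12 and 16 h and left of it in wt.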

How the data were processed

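The deposited table holds TPM per gene, which the authors made with Salmon 0.9.1 after bcl2fastq 2.20.0.422, on sacCer3, per the submitters' processing notes. Each of the 71 columns sums to 1000003 to 1000010 and values stop at a floor of 0.1 TPM, which 0.969% of values hold on average. TPM keep no read depth, so the depth of each library is unknown and no counting interval is given. Poly(A) libraries were strand-specific, per the labels' protocols.

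TPM were used as log2(TPM + 1) in limma 3.58.1 (R 4.3.3) with 1 mean for each of the 36 groups of strain and time, empirical Bayes variances with an intensity trend and 35 residual degrees of freedom. Fold changes are on the TPM + 1 scale and understate those of low genes. A gene entered if it reached 1 TPM in 2 or more libraries, which removed 37 of 5803. The procedure was tested on simulated data. Alternatives were other pseudocounts, filters, scalings, sets of libraries and each library left out.

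Members and the 52 gene lists were chosen with earlier results of these data known. Genes were named by rule: deleted genes and their neighbours, the 12 largest changes each way with a group mean of at least 10 TPM, up to 4 called members of each list and any called member that went the other way, and the 6 largest differences each way from wild type. Other genes were chosen after their values were seen: among them COX5B, TDH3, HSP26, HSP104, HXT1 and SSA3, and the genes at 0 h. Names and positions come from the R64 annotation, which matched 5792 of 5803 genes. Near copies (95% identity over 80% of the coding sequence) were sought with blastn 2.17.0. Windows of 350 to 101 bases before the start codon were cut from the R64 genome in place of a promoter table, and 5749 were found. The window of 1 further gene that the rule named for printing is not reported here.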

Additional observations from a re-analysis of the deposited data

Results flagged for a closer look

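The tests of a difference between backgrounds or times passed for the following results, each given as the log2 change on losing COX4 in tco89 at 12 h less that in the other setting. Against wild type, 184 genes were higher and 369 lower. Against 0 h in the same strains, 122 were higher and 628 lower. Against ras2, 80 were higher and 750 lower, and against rts1, 99 and 247.

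Genes with a more positive change in tco89 than in wild type were HXT6 (4.30), YIG1 (3.16), SDH1 (3.16), SDH2 (3.00), RGI1 (2.96), YAT1 (2.93), RGI2 (2.57), COX26 (2.45), CTT1 (1.89), DSF1 (1.43) and HXT7 (1.12). The reads of HXT6 and HXT7, and of DSF1 and its copy, may have been split between near-identical genes. On losing COX4, the sum of HXT6 and HXT7 was 11.1 times as high in tco89 and 1.65 times as high in wild type.

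Genes with a more negative change in tco89 than in wild type were DAK2 (-4.93), BAP3 (-3.09), HXT3 (-3.01), CWP2 (-2.92), HUG1 (-2.72), EEB1 (-2.51), HXT13 (-2.33), MUP1 (-2.19), LSO1 (-2.17), TPO2 (-2.02), TIS11 (-1.88), GND1 (-1.86), PHM6 (-1.60) and ERG3 (-1.60). HXT13 rose in both backgrounds, so its negative difference marks a smaller rise.

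Against ras2 the difference was 1.76 for SDH2, 1.41 for HXT6, -2.26 for DAK2, -1.74 for DSF1 and 3.30 for CTT1. Against rts1 it was 2.19 for SDH2, 3.16 for HXT6, -2.02 for DAK2 and 1.80 for CTT1. The HXT6 values leave out its near copy HXT7.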

How the results depend on the processing

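Counts of called genes moved with the scale, the pseudocount and, in rts1, with 1 library left out. Among the 146 named genes, none of those called reversed direction under the alternatives run. Sign changes of named genes without a call, such as TCO89 near the floor, were not counted. Under median-ratio scaling and quantile normalization, 239 and 236 genes rose and 262 and 225 fell on losing COX4 in tco89 at 12 h, and 80 and 85 rose and 72 and 68 fell in wild type. For the difference from wild type 211 and 191 were lower. For the difference from 0 h 212 and 211 were higher and 239 and 217 lower. Median-ratio scaling alone gave 662 risers and 307 fallers at 16 h, 68 and 27 in rts1, 175 higher and 332 lower against ras2, and 134 lower against rts1. A pseudocount of 5 TPM gave 407 fallers at 12 h, 187 lower than in wild type and 356 lower than at 0 h. The cause was not tested.

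With 1 library left out, risers ran from 113 to 146 and fallers from 736 to 779 in tco89 at 12 h, 44 to 60 and 129 to 174 in wild type, 42 to 46 and 4 to 5 at 0 h, 214 to 228 and 1540 to 1884 at 16 h, 54 to 60 and 36 to 48 in ras2, and 37 to 51 and 24 to 193 in rts1. Genes higher and lower than in wild type ran from 173 to 210 and 327 to 435, and than at 0 h from 106 to 131 and 572 to 676. Leaving out libraries at 16 h, 0 h and in wild type, ras2 and rts1, rescaling at 16 h and in ras2 and rts1, and the tests against ras2 and rts1, were added after seeing the data. The lone library left in a group is assumed to vary like the other groups.

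Of the 146 named genes, 26 lost their call under median-ratio scaling, 29 under quantile normalization and 17 with a pseudocount of 5 TPM. No paired analysis was possible because the table's columns carry no replicate number. Unknown depth limits what can be said of genes near the floor.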
